A study of Mus musculus with 9 samples.

Results

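Endoplasmic reticulum (ER) and integrated stress response genes were examined in mouse bone marrow stromal cells after treatment with G-CSF (granulocyte colony-stimulating factor), the cytokine that raises neutrophil output. The set held 32 genes of 19938 measured, chosen by their known roles: 3 stress sensors, 3 transcription factors, 11 chaperones and their partners, 3 disulfide isomerases, 5 genes of ER-associated degradation and 7 targets of the transcription factor Atf4. A probe set was used where its only gene symbol in the platform table was that of a member. All 32 genes were measured, by 34 probe sets, and for the 2 genes with 2 probe sets the one with the higher mean over all arrays was used.

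The cells were CXCL12-abundant reticular (CAR) cells, which surround marrow sinusoids and secrete the chemokine Cxcl12. They were sorted as lineage-negative cells bright for a green fluorescent protein carried at 1 Cxcl12 allele, and mice of both groups had this Cxcl12+/gfp genotype. The G-CSF group received 250 µg/kg per day for 5 days (5 arrays) and the control group phosphate-buffered saline (PBS) for 5 days (4 arrays), and RNA was read on Affymetrix Mouse Gene 1.0 ST arrays. Arrays are called biological replicates in the titles, but the animals or pools behind them, and their age and sex, are not given in the sources used here, so a p-value here reflects only how far arrays differ, which may be in part technical. The source names of all 9 samples instead name pre-B colonies, those of G-CSF replicates 2 to 5 with an Hspa9+/- genotype, so groups were taken from the titles and treatments.

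Cells that secrete much protein fold it in the ER, and when unfolded protein accumulates there 3 membrane sensors respond. Ern1 (IRE1) splices the messenger of Xbp1, Atf6 is cut to release a transcription factor, and Eif2ak3 (PERK) phosphorylates the initiation factor eIF2, which slows translation in general while favouring that of Atf4. Other eIF2 kinases that sense amino acid shortage, heme lack or viral RNA also act through Atf4, and this shared branch is the integrated stress response. Splicing, cleavage and phosphorylation are not read by these arrays, which measured transcript levels only.

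The promoters of some stress genes carry short elements through which the sensors are known to act. The ER stress response element (ERSE), bound by cleaved Atf6 with a CCAAT factor, reads CCAAT, any 9 bases, CCACG. Within the 250 bases before the start of a gene, on either strand, it was present in 9 of the 28 members that had a window in the RefSeq promoter table (GRCm38.p6), and in 35 of 27025 genes overall (0.13%). The matches are given in gene orientation with the element in capitals, because these 6 chaperones, 1 isomerase and 2 degradation genes share it; matches on the opposite strand read CGTGG, any 9 bases, ATTGG.
Hspa5: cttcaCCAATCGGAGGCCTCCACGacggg
Hsp90b1: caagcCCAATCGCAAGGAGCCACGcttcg
Calr: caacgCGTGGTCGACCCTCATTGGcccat
Canx: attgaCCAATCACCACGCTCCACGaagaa
Dnajc3: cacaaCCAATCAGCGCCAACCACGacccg
Creld2: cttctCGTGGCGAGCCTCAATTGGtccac
Pdia6: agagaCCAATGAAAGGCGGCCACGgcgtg
Syvn1: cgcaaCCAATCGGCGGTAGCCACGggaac
Derl3: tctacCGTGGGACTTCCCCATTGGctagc

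The Hspa5 window lies at chr2:34772020-34772048 (+ strand), with the element 65 bases before the start. Hsp90b1, at chr10:86705633-86705661 (− strand), holds the printed match 212 bases before its start and a further one at 107 bases. The other 7 are at chr8:84847070-84847098 (−, Calr), chr11:50325795-50325823 (−, Canx), chr14:118937822-118937850 (+, Dnajc3), chr15:88819515-88819543 (+, Creld2), chr12:17266486-17266514 (+, Pdia6), chr19:6046527-6046555 (+, Syvn1) and chr10:75893237-75893265 (+, Derl3). A related element, ERSE-II (ATTGG, any 1 base, CCACG), was found in 1 member, Herpud1, and in 10 of the 27025 genes (0.037%).

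Atf4 with a C/EBP partner binds a composite element whose core was searched as TGATG, any 1 base, AA on both strands. ERSE and ERSE-II overlap in letters, since both end in CCACG and the block before it is the same one read on opposite strands, and the core shares no such block with them. It was present in 3 of the 28 members and in 1056 of 27025 genes (3.91%). These windows are shown because Asns and Chac1 are the members of the Atf4 branch that carry the core, and Herpud1 carries both kinds of element; in Chac1 and Herpud1 the core is on the opposite strand and reads TT, any 1 base, CATCA.
Asns: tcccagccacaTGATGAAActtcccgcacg
Chac1: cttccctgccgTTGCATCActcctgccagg
Herpud1, Atf4 core: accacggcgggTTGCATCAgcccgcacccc
Herpud1, ERSE-II: cgggcgctgATTGGGCCACGttggacact

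Their positions are chr6:7693214-7693243 (−, Asns, 23 bases before the start), chr2:119351038-119351067 (+, Chac1, 193 bases), chr8:94386306-94386335 (+, Herpud1, 112 bases) and chr8:94386368-94386396 (+, Herpud1, 52 bases). Atf6, Hyou1, Manf and Cth had no window. A match of letters is a description of the window and no measure of binding.

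None of the 32 genes passed the test after G-CSF. Levels are log2 RMA intensities (mean ± SD over arrays), a change is G-CSF minus PBS on that log2 scale, and the threshold was an adjusted p under 0.05 in limma, adjusted over all 21789 probe sets with 1 symbol. Of those 21789, 353 passed (1.62%), 162 higher (0.743%) and 191 lower (0.877%). Among the members 0 were called in either direction, and 1, Asns, had an unadjusted p under 0.05, against 2008 of all probe sets (9.22%). Changes were above 0 for 22 members and below 0 for 10, with a median of 0.08, and over all probe sets the median was 0.01. The 95% interval of the change lay within a 2-fold difference in either direction for 30 of the 32 members, Asns and Pdia6 being the exceptions, and within 1.5-fold for 27. Over all probe sets 19789 and 12420 of 21789 did so. Both counts of members include Cth, Trib3 and Psat1, dim genes whose levels are given below. Groups did not overlap for 1 member, Xbp1, against 1013 of all probe sets (4.65%). A bulk level falls alike when fewer cells of a type are present and when each holds less of the RNA, and the arrays cannot tell these apart.

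**Figure D1:**
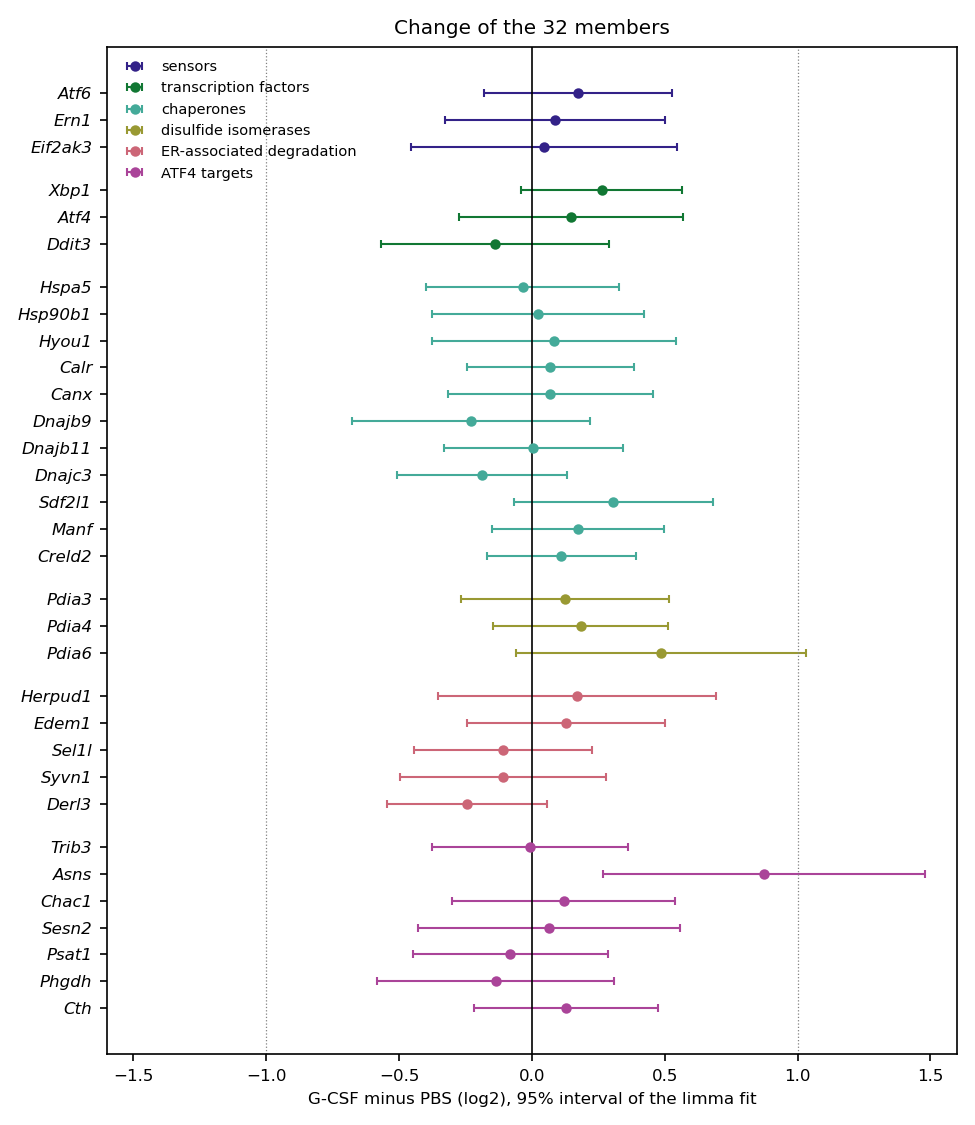
Change of each of the 32 members after G-CSF, in log2 units (x axis), with the 95% interval of the limma fit (5 G-CSF against 4 PBS arrays), coloured by role; dotted lines mark a 2-fold difference. The interval of Asns (0.27 to 1.48) is the one that lies above 0, and the intervals of the other 31 members include 0.

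Markers of the sorted cell type differed between the groups. Of 16 CAR cell markers 10 fell and 0 rose, and their mean level was 10.61 to 10.82 in PBS and 9.73 to 9.79 in G-CSF. Their changes ran from -2.56 (Chrdl1) to 0.28 (Pdgfra), with a median of -0.87. Il7 (-2.08) and Adipoq (-1.69) were also among those that fell. Cxcl12 (12.35 ± 0.11 in PBS, 11.99 ± 0.07 in G-CSF) and Lepr (11.55 and 11.33) were not called and were still at high level. The arrays also fell into 2 sets that the labels do not name, split by the sign of the first principal component of all tested probe sets (34.9% of the variance). Set 1 held G-CSF replicates 1 to 3 and PBS replicates 1 and 2, set 2 held the other 2 arrays of each group, and PBS replicate 3 stood apart at 56.5 on that component, the next array being at 22.5. That array also had the narrowest interquartile range of log2 levels, 2.17 against 2.43 to 2.90 on the others. Its part in the low values of single genes on this array was not tested. Changes within the sets differed in sign from each other for 13 of the 32 members, and both values are given for these.

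The 3 sensors were measured at similar means in both groups. Ern1 was 7.06, 6.58, 5.99 and 6.74 on PBS replicates 1 to 4 and 6.70, 6.68, 6.76, 6.62 and 6.65 on G-CSF replicates 1 to 5, a change of 0.09 (95% interval -0.33 to 0.50, adjusted p = 0.979). Eif2ak3 was 6.79, 7.02, 5.67 and 6.55 with PBS and 6.46, 6.49, 6.58, 6.61 and 6.63 with G-CSF, a change of 0.05 (-0.46 to 0.55, adjusted p = 0.992). For both genes PBS replicate 3 was the lowest of the 9 arrays and the G-CSF arrays lay close together, inside the PBS range. Without that array the change was -0.11 for Ern1 and -0.23 for Eif2ak3. Within the sets Ern1 gave -0.11 in set 1 and 0.27 in set 2, and Eif2ak3 -0.40 and 0.51. Atf6, a sensor that is itself a transcription factor, was 7.79, 8.24, 7.79 and 7.57 with PBS and 8.11, 8.10, 8.16, 7.99 and 7.75 with G-CSF (change 0.17, -0.18 to 0.53, adjusted p = 0.893). PBS replicate 2 held the highest Atf6 level and PBS replicate 4 the lowest, so the groups overlapped.

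Xbp1, the factor whose messenger Ern1 splices and which drives secretory capacity, was the member whose groups separated. Its levels were 8.11, 8.13, 8.25 and 8.18 with PBS and 8.26, 8.52, 8.29, 8.72 and 8.38 with G-CSF. Every G-CSF array lay above every PBS array, but the lowest of them exceeded the highest control by less than the spread within G-CSF. The change was 0.26 (SE 0.14, 95% interval -0.04 to 0.57; PBS 8.17 ± 0.06, n = 4; G-CSF 8.43 ± 0.19, n = 5), and it did not pass the limma test (adjusted p = 0.659). It was 0.23 in set 1 and 0.33 in set 2.

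Atf4, the common effector of the eIF2 kinases, was 8.76, 8.83, 8.53 and 8.83 with PBS and 9.57, 8.74, 8.71, 8.71 and 8.69 with G-CSF. One array, G-CSF replicate 1, was high, and the other 4 lay inside the PBS range. The change of 0.15 (-0.27 to 0.57, adjusted p = 0.946) rested on that array and was -0.02 without it. Ddit3 (CHOP), a factor that Atf4 induces and that promotes cell death under lasting stress, was 8.21, 8.18, 8.13 and 8.15 with PBS, against 8.58, 8.32, 7.76, 7.92 and 7.57 with G-CSF. The PBS arrays were tightly grouped (8.17 ± 0.04), whereas the G-CSF arrays lay on both sides of them (8.03 ± 0.41), with replicates 1 and 2 above and replicates 3 to 5 below. Its change was -0.14 (-0.57 to 0.29, adjusted p = 0.954), 0.02 in set 1 and -0.40 in set 2.

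**Figure D2:**
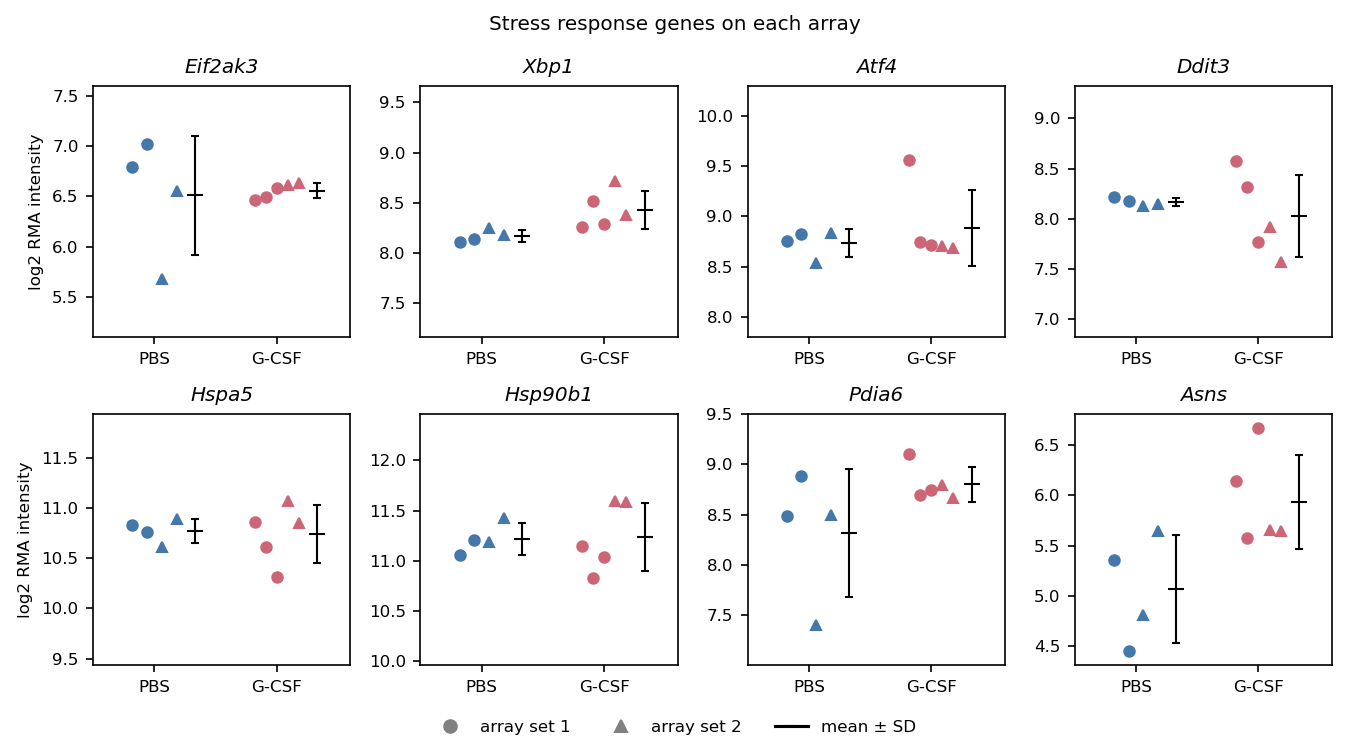
Log2 RMA intensity (y axis) of 8 members on each PBS (blue) and G-CSF (red) array, with circles for array set 1, triangles for array set 2, and mean ± SD as black bars; each panel has its own y range. Xbp1 is the panel without overlap between the groups, Atf4 shows 1 high G-CSF array at 9.57, and PBS replicate 3 is the low array of Eif2ak3 (5.67) and Pdia6 (7.40).

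No chaperone, in the group with the most ERSE matches, passed the test. Hspa5 (BiP), the ER Hsp70 that binds unfolded protein and holds the sensors inactive, was 10.82, 10.76, 10.61 and 10.89 with PBS and 10.86, 10.61, 10.31, 11.07 and 10.85 with G-CSF. The G-CSF arrays reached both above and below the controls. The change was -0.03 (SE 0.17, -0.40 to 0.33, adjusted p = 0.992), -0.20 in set 1 and 0.21 in set 2. Hsp90b1 (Grp94), the ER Hsp90, was 11.06, 11.21, 11.18 and 11.43 with PBS and 11.15, 10.83, 11.04, 11.60 and 11.59 with G-CSF, a change of 0.02 (-0.38 to 0.42, adjusted p = 0.995). Here G-CSF replicates 4 and 5, both of set 2, were the highest of the 9 arrays and G-CSF replicate 2 the lowest, and the change was -0.12 in set 1 and 0.29 in set 2.

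The lectin chaperones Calr and Canx, which hold glycoproteins during folding, differed between the groups by less than the SD of either group. Calr was 9.87 ± 0.16 with PBS and 9.94 ± 0.17 with G-CSF (change 0.07, adjusted p = 0.977), and Canx 9.82 ± 0.25 and 9.89 ± 0.27 (change 0.07, adjusted p = 0.981). Hyou1 (Grp170), an exchange factor for Hspa5, gave 0.08 (adjusted p = 0.981), with -0.12 in set 1 and 0.40 in set 2. Of the J-domain partners of Hspa5, Dnajb11 gave 0.00 (-0.33 to 0.34; -0.16 in set 1 and 0.21 in set 2), Dnajb9, an Xbp1 target that helps Ern1 to be held inactive, gave -0.23 (-0.68 to 0.22), and Dnajc3 (p58IPK), also known as an inhibitor of eIF2 kinases, gave -0.19 (-0.51 to 0.13). Dnajb9 was 8.18, 8.35, 8.47 and 8.55 with PBS and 8.60, 7.80, 7.64, 8.33 and 8.43 with G-CSF. Its low values came from G-CSF replicates 2 and 3, and 7 of the 11 chaperones had their lowest level on one of these arrays. The share of all probe sets that did so was not counted. The 2 probe sets of Dnajc3 held identical values.

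Among the smaller ER proteins, Sdf2l1, which works with Dnajb11, showed the largest difference of the chaperone group. It was 7.37, 7.10, 7.44 and 7.64 with PBS and 7.88, 7.61, 7.28, 7.95 and 7.76 with G-CSF (change 0.31, -0.07 to 0.68, adjusted p = 0.702). G-CSF replicates 1, 4 and 5 exceeded every control array and replicates 2 and 3 did not. Manf, a secreted ER factor induced by stress, gave 0.17 (-0.15 to 0.50, adjusted p = 0.879), its PBS mean being held down by replicate 3 (7.28, against 7.74 to 7.87 on the other controls). Creld2, an ER protein with disulfide exchange activity, gave 0.11 (-0.17 to 0.39, adjusted p = 0.934). Across the 11 chaperones 8 changes were above 0 and 3 below, with a range of -0.23 to 0.31 and a median of 0.07, which was -0.12 in set 1 and 0.21 in set 2.

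The disulfide isomerases all had positive changes that missed the threshold. Pdia6, which also acts on Ern1, was 8.49, 8.88, 7.40 and 8.50 with PBS and 9.11, 8.69, 8.74, 8.80 and 8.67 with G-CSF. PBS replicate 3 was more than a log2 unit below every other array, and PBS replicate 2 lay within the G-CSF range. The change of 0.49 (-0.06 to 1.03, adjusted p = 0.642) was 0.18 without PBS replicate 3. Pdia3 (ERp57), which serves the lectin chaperones, gave 0.12 (-0.27 to 0.51, adjusted p = 0.955). Pdia4 (ERp72) gave 0.18 (-0.15 to 0.51, adjusted p = 0.866), and its second, dimmer probe set gave -0.35 (adjusted p = 0.879), the opposite sign.

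ER-associated degradation returns misfolded proteins to the cytosol for the proteasome. Herpud1, a membrane scaffold of this machinery with both an ERSE-II and an Atf4 core in its promoter window, was 8.44, 8.15, 7.60 and 7.89 with PBS and 8.52, 8.78, 7.81, 8.09 and 7.76 with G-CSF (change 0.17, -0.35 to 0.69, adjusted p = 0.954). The arrays of set 1 tended to lie above those of set 2 in both groups. Edem1, which hands glycoproteins to degradation, gave 0.13 (-0.25 to 0.50), with -0.15 in set 1 and 0.49 in set 2. The ubiquitin ligase Syvn1 (Hrd1) gave -0.11 (-0.49 to 0.28) and its partner Sel1l -0.11 (-0.44 to 0.22), the latter with -0.25 in set 1 and 0.09 in set 2. Derl3, a Derlin of the retrotranslocation channel, was 5.57, 5.35, 5.62 and 5.42 with PBS and 5.34, 5.00, 5.21, 5.39 and 5.31 with G-CSF (change -0.24, -0.54 to 0.06, adjusted p = 0.708). G-CSF replicate 4 exceeded the lowest control, and the other 4 G-CSF arrays lay below all controls. The 5 genes had a median change of -0.11.

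**Figure D3:**
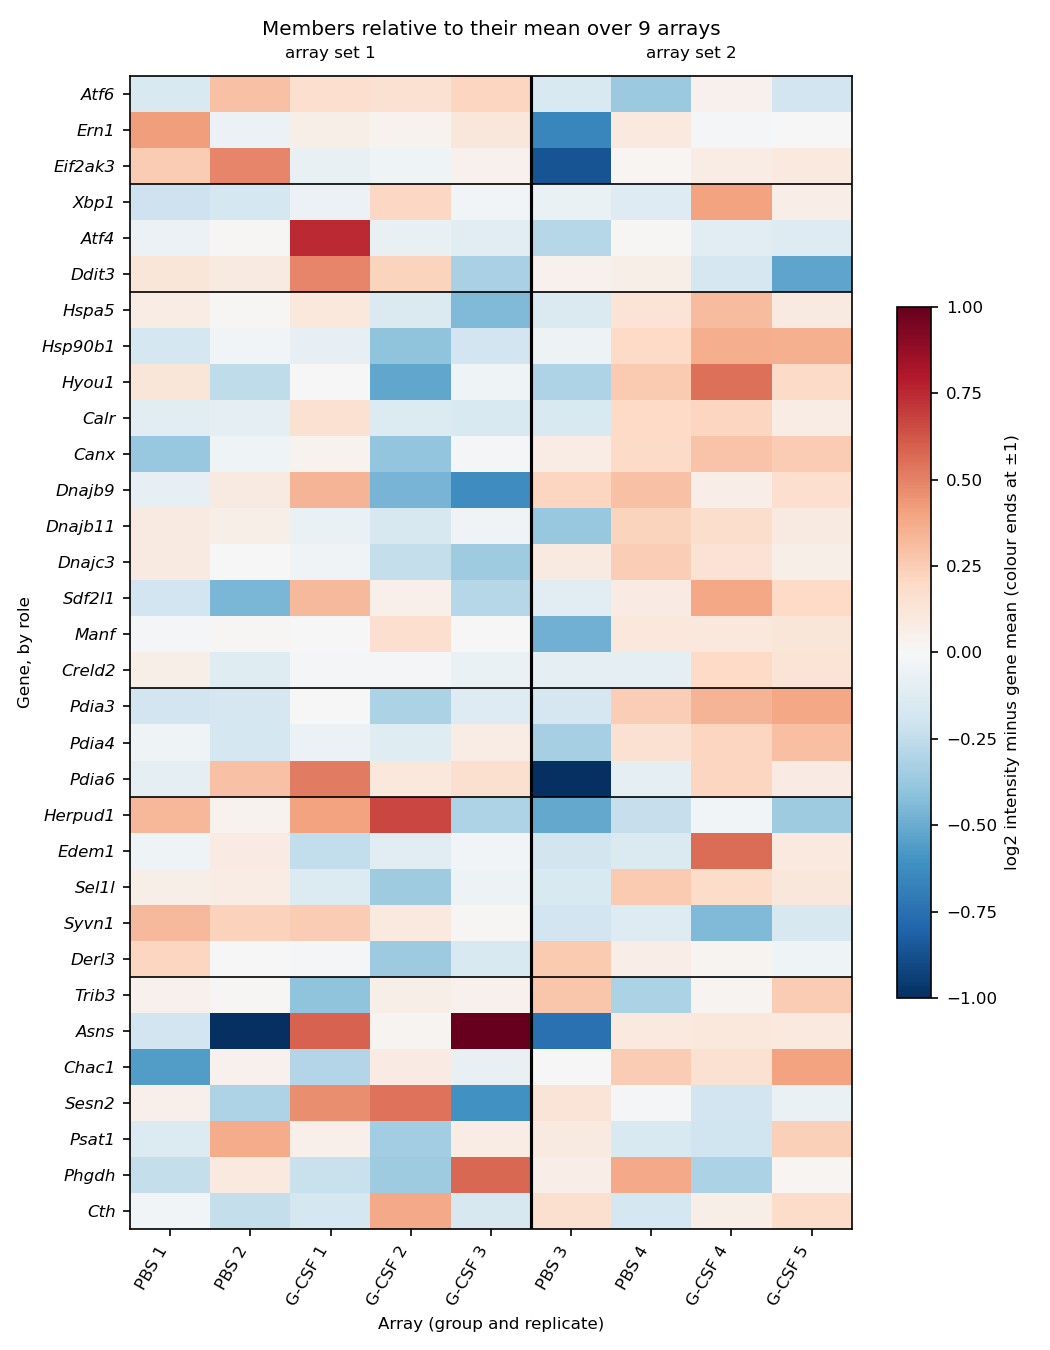
Each member's log2 RMA intensity minus its mean over the 9 arrays (colour, ending at ±1), with genes in rows by role and arrays in columns by array set, PBS before G-CSF within a set. The dark cells include PBS replicate 3 for Eif2ak3 and Pdia6, G-CSF replicate 1 for Atf4, and Asns in both directions, and no role shows a colour shared by the 5 G-CSF columns against the 4 PBS columns.

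Among the Atf4 targets, Asns, the enzyme that makes asparagine and a standard readout of amino acid shortage, had the largest difference of all members. It was 5.36, 4.45, 4.81 and 5.64 with PBS and 6.14, 5.57, 6.67, 5.66 and 5.65 with G-CSF. The highest control, PBS replicate 4, reached the level of G-CSF replicates 2, 4 and 5, while G-CSF replicates 1 and 3 were clearly above all controls. The mean was 5.06 ± 0.54 with PBS (n = 4) and 5.94 ± 0.47 with G-CSF (n = 5), a change of 0.87 (SE 0.28, 95% interval 0.27 to 1.48) or 1.83-fold. The PBS mean was low, below the median log2 level of every array (5.36 to 5.48). In limma the unadjusted p was 0.0085 and the adjusted p 0.219, which misses the threshold. The change was 1.22 in set 1 and 0.43 in set 2, and over 20 alternative settings the adjusted p ran from 0.133 to 0.727.

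The other 6 Atf4 targets had smaller differences, and none passed the test. Trib3, a pseudokinase that feeds back on Atf4 and Ddit3, was 4.85, 4.82, 5.08 and 4.49 with PBS and 4.40, 4.86, 4.84, 4.83 and 5.06 with G-CSF (change -0.01, -0.38 to 0.36, adjusted p = 0.998), with -0.13 in set 1 and 0.16 in set 2. Chac1, which degrades glutathione and carries the Atf4 core shown above, gave 0.12 (-0.30 to 0.54, adjusted p = 0.964). Sesn2, a leucine sensor that restrains mTORC1, gave 0.06 (-0.43 to 0.56, adjusted p = 0.986), with G-CSF replicates 1 and 2 (6.41 and 6.49) above and G-CSF replicate 3 (5.34) below all controls, and 0.26 in set 1 against -0.19 in set 2. Of the serine synthesis enzymes, Phgdh gave -0.14 (-0.58 to 0.31; 0.07 in set 1 and -0.37 in set 2) and Psat1 -0.08 (-0.45 to 0.29; -0.19 and 0.05). Cth, which makes cysteine, gave 0.13 (-0.22 to 0.47). Mean levels of Cth (3.41 with PBS, 3.54 with G-CSF), Trib3 (4.81 and 4.80) and Psat1 (5.07 and 4.98) were low. They lay below the median log2 level of every array (5.36 to 5.48). Whether these genes were expressed cannot be told without a detection call, so their small changes are weak evidence of unchanged expression. The median of the 7 targets was 0.06, and G-CSF replicate 1, which had the high Atf4 level, was the second highest array for Asns and for Sesn2 but the lowest for Trib3.

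The SD was larger among the G-CSF arrays than among the controls for 21 of 32 members, against 8359 of all 21789 probe sets (38.4%). Ddit3 (0.41 against 0.04) and Atf4 (0.38 against 0.14) are examples, and Eif2ak3 (0.08 against 0.59), Ern1 (0.05 against 0.45) and Pdia6 (0.18 against 0.64) went the other way. PBS replicate 3 was the lowest of the 9 arrays for 8 members, and G-CSF replicate 4 or 5 the highest for 12. The same was not counted over all probe sets, so these counts are no trait of the members. Between the array sets, whatever the treatment, Canx was higher on every array of set 2 and Syvn1 lower, 2 of 32 members, against 14.2% of all probe sets. The sign of the change was the same in all alternative settings for 14 members, among them Asns, Xbp1, Sdf2l1, Pdia6 and Derl3, and it turned in at least 1 setting for the other 18, whose changes were at most 0.18 in size.

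Genes with these promoter elements were read from the same fit. Of the 35 genes with an ERSE, 20 were tested, 9 of them the members above and 11 others. In limma 0 rose and 0 fell, and their median change was 0.01. Of 491 tested genes with the Atf4 core, 3 of them members, 3 rose and 1 fell, also with a median of 0.01. Over all 21789 probe sets 162 rose (0.743%) and 191 fell (0.877%). The 7 tested genes with an ERSE-II, Herpud1 among them, held no called gene.

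The wider pathway was read from 138 further genes chosen by known role, of which 128 had a probe set with a single symbol. In limma 2 rose and 0 fell, 13 had an unadjusted p under 0.05 (11 higher and 2 lower), and the median change was 0.06. Over all probe sets the calls were 353 of 21789 (1.62%) and the unadjusted count 2008 (9.22%). Groups did not overlap for 9, 7 of them higher with G-CSF, against 1013 of all probe sets (4.65%), 476 of them higher (2.18%).

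Slc1a4, a carrier of alanine, serine and cysteine and a known Atf4 target, was the clearest change. It was 5.06, 4.66, 5.05 and 4.79 with PBS and 5.69, 5.64, 6.20, 5.77 and 5.83 with G-CSF. All G-CSF arrays lay above all controls in both sets. Every control value lay below the median log2 level of every array (5.36 to 5.48). Without a detection call, expression of Slc1a4 in the controls cannot be told. Slc1a4 rose by 0.93 (SE 0.16, 95% interval 0.59 to 1.28) or 1.91-fold, from 4.89 ± 0.20 (n = 4) to 5.82 ± 0.22 (n = 5), with a limma adjusted p of 0.0102. It was called in each of the 9 fits that left out 1 array (0.84 to 0.99, highest adjusted p 0.04), and the change was 0.98 in set 1 and 0.88 in set 2, neither past the threshold within its set alone.

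Of the 36 Atf4 targets measured in the wider list, 1 rose and 0 fell, with a median change of 0.16. The glutamine carrier Slc1a5 was 10.83, 11.02, 10.08 and 10.19 with PBS and 9.71, 10.03, 9.97, 9.27 and 9.38 with G-CSF. It was lower on every G-CSF array (change -0.86, SE 0.23, adjusted p = 0.117), a direction opposite to that of Slc1a4. It missed the threshold, but passed it with the array set as a block (-0.93, adjusted p = 0.00189), with array weights (-1.07, adjusted p = 0.0305) and with a further quantile normalisation (-0.98, adjusted p = 0.0198). No other alternative called Slc1a5, neither set alone included. Dropping single arrays never brought it past the threshold, with changes from -1.01 to -0.70 and limma adjusted p from 0.0726 to 0.304. Slc7a5, the light chain of a large neutral amino acid carrier, was 5.80 ± 0.54 with PBS and 6.51 ± 0.34 with G-CSF (change 0.71, adjusted p = 0.294), with PBS replicate 1 inside the G-CSF range. Gars, the glycyl-tRNA synthetase, was higher on every G-CSF array (change 0.40, adjusted p = 0.334); it lay outside the naming rule and was picked after its values were seen.

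Folding and translocation genes gave the other call. Of 45 measured, 1 rose and 0 fell, the median change was 0.07, and 5 were higher on every G-CSF array than on every control, against 476 of all 21789 probe sets (2.18%). Fkbp11, a prolyl isomerase of the ER, was 5.28, 5.27, 4.87 and 5.29 with PBS and 6.06, 5.56, 5.93, 5.82 and 6.02 with G-CSF. Its control values all lay below the median log2 level of every array (5.36 to 5.48), so its expression there cannot be told either. Fkbp11 rose by 0.70 (SE 0.16, 0.36 to 1.04) or 1.62-fold, from 5.18 ± 0.21 to 5.88 ± 0.20, with an adjusted p of 0.0461 in limma, just inside the threshold. The groups were well apart, yet the call was kept in 1 of the 9 fits that left out an array, the one without G-CSF replicate 2; in the other 8 the change was 0.60 to 0.74 with adjusted p up to 0.122.

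The other 4 folding genes without overlap did not pass. Txndc5, a disulfide isomerase of secretory cells, was 8.01 ± 0.39 with PBS and 8.58 ± 0.19 with G-CSF (change 0.57, adjusted p = 0.24), and Pdia5, another, was 6.91 ± 0.10 and 7.46 ± 0.32 (change 0.55, adjusted p = 0.197). P4hb, which is protein disulfide isomerase itself and a subunit of collagen prolyl hydroxylase, gave 0.49 (adjusted p = 0.323), and Ddost, of the oligosaccharyltransferase, 0.36 (adjusted p = 0.289); these 2 were named after their values were seen. They differ in spread, since P4hb ranged from 8.77 to 9.64 among controls and Ddost from 7.77 to 8.07.

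**Figure D4:**
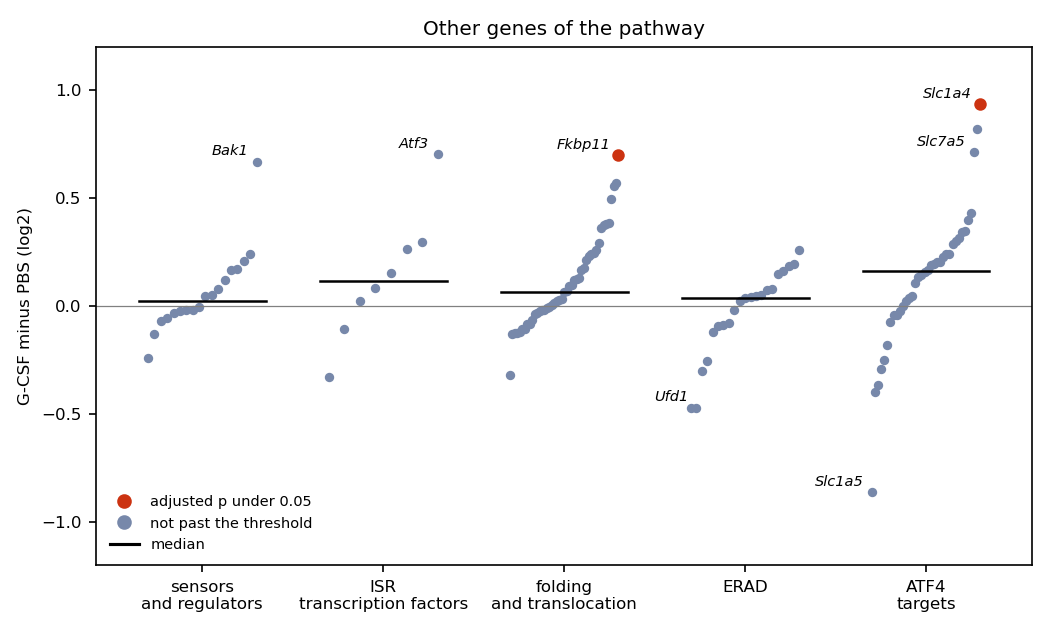
Change after G-CSF in log2 units (y axis) of the 128 measured genes of the wider pathway, 1 point per gene sorted within its role (x axis), with the role's median as a black line and genes past the threshold in red. The red points are Slc1a4 (0.93) and Fkbp11 (0.70), and the medians of the 5 roles lie between 0.02 and 0.16.

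Plasma cells also express folding genes, Xbp1 and Fkbp11 strongly, so their markers were read beside these results. Of 10 measured plasma cell markers 0 rose and 0 fell, and their mean level was 4.69 to 4.99 in PBS and 4.47 to 4.70 in G-CSF, with changes from -0.82 (Jchain) to 0.20 (Mzb1) and a median of -0.20. Between these ends, Pou2af1 gave -0.65, Slamf7 -0.41, Irf4 -0.35, Sdc1 -0.32, Tnfrsf17 -0.09 and Prdm1 -0.06. Ighm and Eaf2 gave 0.06 and 0.12. Of 16 neutrophil markers 2 rose (Mmp9 by 1.64 and Cd177 by 1.27) and 0 fell. Their mean level was 7.68 to 9.15 in PBS and 8.60 to 9.30 in G-CSF, so the groups overlapped. Changes ran from 0.15 (Ly6g) to 1.64 (Mmp9), with a median of 0.92. Among B cell precursor markers 3 of 11 fell and 0 rose (5.22 to 5.50 against 4.63 to 4.99). They were Cd79a (4.46 with PBS, 3.38 with G-CSF), Dntt (4.17 and 3.46) and Ebf1 (10.10 and 9.19). Ebf1 was far brighter than the other markers of its list and raised the mean level, and which cells gave its signal was not tested. Among erythroid markers 2 of 8 fell and 0 rose (5.20 to 6.24 against 4.72 to 4.98). Of 12 macrophage markers 1 fell (Vcam1, also on the CAR cell list) and 0 rose. Of 11 endothelial markers 0 rose and 0 fell. Of 7 osteoblast markers 1 rose (Col1a1, by 1.36) and 1 fell (Phex, change -2.07). The part of these cells in the levels of Slc1a4, Fkbp11, Xbp1 and Asns was not tested.

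Among the further sensors and regulators, none of the 18 measured passed the limma test, and 1 had an unadjusted p under 0.05. This was Bak1, which acts in cell death and binds Ern1, at 7.30 to 8.61 with PBS and 8.44 to 9.01 with G-CSF (change 0.67, adjusted p = 0.289), with PBS replicate 1 inside the G-CSF range. The membrane-bound factors Creb3l2 and Creb3l1, relatives of Atf6 that act in secretory and matrix-forming cells, gave 0.24 (adjusted p = 0.856) and -0.24 (adjusted p = 0.879).

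Of the 8 further transcription factors of the integrated stress response, 0 passed in limma and 0 had an unadjusted p under 0.05. Atf3, a stress-induced partner of Atf4, was 8.17, 7.54, 7.68 and 8.52 with PBS and 9.47, 9.33, 6.95, 8.71 and 8.94 with G-CSF. G-CSF replicate 3 was the lowest of all arrays and the other 4 G-CSF arrays were higher than every control. The change was 0.70 (-0.24 to 1.64, limma adjusted p = 0.758). Over the 9 fits that left out 1 array it ran from 0.51 to 1.14, with adjusted p between 0.0593 and 0.926, and 0 of them passed. The highest change and lowest adjusted p came without G-CSF replicate 3, the array that went against the rise. Nupr1, a chromatin-associated stress protein, gave 0.30 (adjusted p = 0.761) and Jdp2, a repressor of the same factor family, -0.33 (adjusted p = 0.759).

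Among 21 further degradation genes 0 passed in limma and 1 had an unadjusted p under 0.05. Ufd1, the Vcp cofactor that extracts ubiquitinated proteins, was 8.07, 8.28, 8.23 and 8.17 with PBS and 7.30, 7.55, 8.04, 7.90 and 7.78 with G-CSF. All G-CSF arrays lay below all controls, by a small margin for replicate 3, and the change was -0.47 (SE 0.17, adjusted p = 0.291). Derl2 gave -0.47 (adjusted p = 0.75) and Faf2, a Vcp recruiter, -0.25 (adjusted p = 0.738), both with overlapping groups.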

How the data were processed

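Gene expression was measured on 9 Mouse Gene 1.0 ST arrays, 5 G-CSF and 4 PBS. Per the labels' protocols, RNA of sorted cells was amplified with the NuGEN PicoSL Ovation system. Per the submitters' processing notes, the authors made the deposited intensity table by RMA with Affymetrix Expression Console, whose version is not given in the sources used here. Values from 1.73 to 15673.1 and medians per array between 34.72 and 37.24 show a linear scale, so log2 was taken of the deposited intensities. RMA is meant to set arrays to a shared distribution, so differences are relative to the other transcripts, and it gives no detection call. The deposited values did not fully share one. Over the tested probe sets the interquartile range of log2 levels was 2.90 on PBS replicate 1 and 2.17 on PBS replicate 3. Precision is limited by having 4 and 5 arrays.

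Of 35553 probe sets, the platform table pairs 21789 with 1 symbol, 1621 with several and 12143 with none; those with 1 were tested (19938 genes). Gene identifiers of 21698 matched a RefSeq table (GRCm38.p6), and no member's symbol needed an update. The comparison used limma 3.58.1 (lmFit and eBayes, two-sided, no covariates) in R 4.3.3 with Benjamini-Hochberg adjustment over the 21789, and was tested on simulated data. Promoter windows span 250 bases before to 50 after each RefSeq start, and the 250 before were searched.

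The rule for named genes took every member and, of the wider lists, those past the threshold and the 3 of each role with the smallest p. Members and lists were chosen with earlier results of these data known. Alternatives were the replicate number or the array set as a block, each set alone, each array left out in turn, array weights, centring on the median, quantile normalisation once more, eBayes with trend and robust settings, averaging the probe sets of a gene, and testing either all probe sets or the brighter ones. Same-numbered arrays of the groups did not deviate together in every pair (correlations of -0.28 to 0.35), so the numbers were not taken as pairs. Of the wider lists, 10 genes had no probe set with a single symbol and were left out.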

Additional observations from a re-analysis of the deposited data

Results flagged for a closer look

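Of 94 groups of arrays examined for a single array far from the others (47 genes in each of 2 treatments), 4 were found, and chance gives about 1 in 20. For Atf4, G-CSF replicate 1 was highest at 9.57, with the nearest G-CSF array at 8.74. For Pdia3, PBS replicate 4 was highest at 9.80, with the nearest control at 9.39. PBS replicate 3 was the lowest control for Fkbp11, at 4.87 with the nearest at 5.27, and for Txndc5, at 7.43 with the nearest at 8.19. The cause of these values was not tested.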

How the results depend on the processing

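Members past the threshold numbered 0 in limma in all 20 alternatives, and the lowest adjusted p of any member was 0.133 (Asns without PBS replicate 4). Called probe sets, 353 in the reported fit, were 181 with all probe sets of the table tested, 180 with the replicate block, 598 with the array set as a block, 202 in set 1 alone, 59 in set 2 alone (each set has fewer arrays) and 210 to 318 with 1 array left out. Called wider pathway genes, 2 in the reported fit, were 1 with all probe sets, with trend and robust eBayes, with median centring and with the replicate block (Slc1a4 in each). They were 3 with quantile normalisation, with array weights and with the array set as a block (Slc1a4, Fkbp11 and Slc1a5 in each). In either set alone they were 0, and with 1 array left out 1 to 2. Changes of members took the opposite sign as follows; none was past the threshold, and the cause was not tested. With quantile normalisation Hsp90b1 gave -0.0877, Calr -0.0035 and Canx -0.0013. With array weights Ern1 gave -0.0287, Eif2ak3 -0.16, Dnajb11 -0.0454 and Trib3 0.0627. The mean over probe sets gave -0.0835 for Pdia4. The replicate block gave -0.0649 for Hsp90b1 and -0.0179 for Dnajb11, and the set block 0.0034 for Trib3. In set 1 alone Ern1 gave -0.11, Eif2ak3 -0.40, Ddit3 0.0221, Hsp90b1 -0.12, Hyou1 -0.12, Dnajb11 -0.16, Edem1 -0.15 and Phgdh 0.0681. In set 2 alone Hspa5 gave 0.21, Sel1l 0.0927, Trib3 0.16, Sesn2 -0.19 and Psat1 0.0508. With 1 array left out the ranges were -0.0671 to 0.12 for Hsp90b1, -0.0438 to 0.18 for Canx, -0.11 to 0.0914 for Trib3, -0.0438 to 0.23 for Chac1, -0.0648 to 0.22 for Sesn2, -0.15 to 0.0284 for Psat1, -0.11 to 0.24 for Ern1, -0.23 to 0.22 for Eif2ak3, -0.0449 to 0.22 for Hyou1, -0.12 to 0.0807 for Dnajb11, -0.12 to 0.073 for Hspa5 and -0.0233 to 0.20 for Atf4. Cth, Psat1 and Trib3 were too dim for the fit on brighter probe sets, so they have no value there. Differences well under a log2 unit could be missed with 4 and 5 arrays, as the median SE of the members was 0.175.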
